A study of Mus musculus with 6 samples.

Results

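Long noncoding RNAs are transcripts that carry no long open reading frame and act, where a role is known, as RNA. A set of 10 of them was followed in the mouse forebrain: the little-described transcript 1700047M11Rik, and 9 known RNAs of brain, namely Malat1, Neat1, Meg3, Miat, Snhg11, Dlx6os1, Pantr1, Rmst and Sox2ot. 1700047M11Rik was chosen by its read counts, which had passed the test of the comparison described here, so its values in that comparison are a description and support nothing. The other 9 were chosen as known brain noncoding RNAs to set beside it, with results of these libraries already known. Matched by Ensembl identifier, 8 of the 10 had a row among the 35275 gene identifiers of the deposited tables, and all 8 passed the filter on low counts. 1700047M11Rik passed through the control group, where it is higher. Rmst and Sox2ot were not analysed here. The GENCODE M21 annotation calls 1700047M11Rik, Neat1, Malat1, Meg3, Miat and Pantr1 lincRNA and Dlx6os1 antisense RNA, but it calls Snhg11 protein coding.

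The study sequenced poly-T selected RNA of 6 forebrains from C57BL/6 mice at postnatal day 9. The conditional knockout (cKO) group held 3 Pdgfra-CreER:Parp1fl/fl mice and the control group 3 Parp1fl/fl littermates without Cre. Both groups carried the floxed allele, and both received tamoxifen on each day from postnatal day 1 to 3. Parp1 is the gene of a poly(ADP-ribose) polymerase. The recombinase is driven by Pdgfra, a gene of oligodendrocyte precursors. Deletion is thus aimed at cells that expressed Pdgfra around the days of tamoxifen, and cells that arise from them inherit it. Other cells keep Parp1. In whole tissue, fewer cells of a type and less RNA per cell cannot be told apart, for any RNA below.

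Malat1 is a nuclear RNA of splicing speckles, and Neat1 is the RNA around which paraspeckles, another nuclear body, are built. Meg3 is an imprinted RNA read from the maternal allele. Miat, also called Gomafu, is a nuclear RNA of neurons whose repeats bind splicing factors. Dlx6os1 is read from the Dlx5 and Dlx6 locus in GABAergic neurons and their precursors, and Pantr1 is read near Pou3f3, a transcription factor gene of cortical neurons. Snhg11 is a snoRNA host gene, meaning that its introns hold small nucleolar RNAs. No function of 1700047M11Rik is given here.

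RNA was captured by poly-T beads, so the sequence at or near the end of each transcript bears on what could be counted. The windows below were read from the mm10 genome, 5′ to 3′ on the strand of the gene. The first comes from inside Malat1, with its longest run of A in capitals. As background, this tract lies just before the tRNA-like sequence at which the RNA is cut, and the end of mature Malat1 is not a poly(A) tail. The others are the last 60 bases of annotated transcripts, with any AATAAA or ATTAAA, the usual signals for adding a poly(A) tail, in capitals.
Malat1, chr19:5795964-5796023, minus strand: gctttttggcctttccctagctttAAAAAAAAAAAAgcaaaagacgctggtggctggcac
Neat1, short transcript, chr19:5842307-5842366, minus strand: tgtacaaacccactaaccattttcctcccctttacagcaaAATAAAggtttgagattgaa
Neat1, long transcript, chr19:5824708-5824767, minus strand: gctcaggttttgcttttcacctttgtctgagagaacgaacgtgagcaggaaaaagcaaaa
Meg3, chr12:109571667-109571726, plus strand: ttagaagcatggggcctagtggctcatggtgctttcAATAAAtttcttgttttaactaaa
1700047M11Rik, chr1:182303266-182303325, plus strand: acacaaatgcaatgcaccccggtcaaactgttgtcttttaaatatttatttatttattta

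The signal stands in the short Neat1 transcript of 3004 bases and in Meg3, and in neither the end of the long Neat1 transcript of 20771 bases nor that of 1700047M11Rik. On the sense strand, one or other of these hexamers was found in the last 40 bases of 0 of the 2 annotated 1700047M11Rik transcripts, 1 of 4 of Neat1, 3 of 4 of Malat1, 4 of 11 of Meg3 and 2 of 6 of Miat. The counts were 2 of 5 for Snhg11, 0 of 3 for Dlx6os1 and 9 of 12 for Pantr1. Among 9231 annotated long noncoding transcripts of genes in the tables, 40% held one. Many annotated ends are not measured ends, so a missing hexamer says only that these letters are not in that window.

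The start of 1700047M11Rik is printed because this is the RNA that differed most between the groups. The window is the RefSeq promoter on build GRCm38.p6 (the bases of mm10), 250 bases before to 50 bases after a start that is also the first base of the shorter of its 2 GENCODE transcripts, of 684 bases. The longer one, of 2607 bases, starts at 182287990.
1700047M11Rik promoter, chr1:182300584-182300883, plus strand: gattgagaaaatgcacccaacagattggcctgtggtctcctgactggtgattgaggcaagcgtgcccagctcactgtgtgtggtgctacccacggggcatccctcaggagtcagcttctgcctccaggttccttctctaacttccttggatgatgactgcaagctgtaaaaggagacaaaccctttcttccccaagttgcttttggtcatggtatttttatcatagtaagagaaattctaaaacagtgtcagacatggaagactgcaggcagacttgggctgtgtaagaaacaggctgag

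Searched on both strands, this window held no CANNTG, the E-box of basic helix-loop-helix factors such as Olig2, and no ACAAT or ACAAAG, the core letters of many SOX factor sites. Over all 32851 RefSeq mouse promoter windows of 300 bases, 72.3% held CANNTG, 31.0% ACAAT and 18.7% ACAAAG. RefSeq windows were found for 6 of the 10 RNAs. A Meg3 window, chr12:109540746-109541045, also held none of these letters. The windows of Malat1 and Snhg11 held CANNTG but neither ACAAT nor ACAAAG, and that of Miat held ACAAAG.

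Miat is shown by its repeats, the feature for which the RNA is known. The 200 bases of its longest transcript that held the most ACTAAC (in capitals) begin at position 4873 of that transcript. They hold 4 of the 11 copies in the transcript, counted on the sense strand.
Miat, chr5:112217319-112217518, minus strand: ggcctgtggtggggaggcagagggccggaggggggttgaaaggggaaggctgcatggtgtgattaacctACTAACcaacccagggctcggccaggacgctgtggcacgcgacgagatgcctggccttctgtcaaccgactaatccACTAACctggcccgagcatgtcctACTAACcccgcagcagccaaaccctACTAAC

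The libraries held 17262042 to 29310193 counts. Parp1, the targeted gene, had 90.8, 97.3 and 85.6 CPM (counts scaled to the library total, with TMM factors) in controls 1 to 3 and 80.8, 79.7 and 79.1 in cKO 1 to 3, so every control lay above every cKO library. The label of forebrain was checked with Tbr1, a factor of cortical neurons, which was measured at 60.6 to 96.3 CPM over the 6 libraries. Control replicate 3 stood apart. Its 12 striatal genes summed to 658 CPM, against 1586 to 1956 in the other 5 libraries, its 12 thalamic genes to 901 against 383 to 447, and its 12 midbrain and hindbrain genes to 39.4 against 4.1 to 5.93. Of those 12 midbrain and hindbrain genes, 8 had a mean under 1 CPM, among them 3 at 0 in all 6 libraries. Slc6a3, 1 of the 12, had 20.6 CPM in control replicate 3 and 1.01 to 1.56 in the other 5. Control replicate 1 had 3 counts of the X-inactivation RNA Xist and 1123 of the Y-linked Ddx3y. The other 5 libraries had 20196 to 27661 counts of Xist and 0 or 1 of Ddx3y. For each RNA measured, the log2 fold change is also given without control replicate 3, without control replicate 1, or without each in turn. The marker lists are given over all 6 libraries only.

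The 8 RNAs covered nearly the whole range of expression. Levels between genes are given as deposited FPKM (fragments per kilobase, scaled to the library total), since longer RNAs collect more reads. In controls Malat1 had the highest level, 519 ± 105 FPKM (SD, n = 3 mice, as for all values below), followed by Meg3 with 444 ± 18.9 and Snhg11 with 371 ± 8.42. They held ranks 51, 70 and 91 among the 16938 genes tested. Miat followed at 101 ± 8.65 FPKM and rank 519, and Pantr1 at 26.5 ± 8.28 FPKM and rank 2785. Dlx6os1, at 6.9 ± 3.41 FPKM, was rank 8144, and Neat1, at 2.27 ± 0.459 FPKM, was rank 11731. 1700047M11Rik came last at 0.963 ± 0.092 FPKM and rank 13924. It is therefore a rare transcript set beside some of the most abundant ones.

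The order of the 8 levels was the same in cKO forebrains, from Malat1 at 597 ± 70.5 FPKM down to 1700047M11Rik at 0.2 ± 0.0304. In both groups Malat1 and Meg3 were the only neighbours in that order whose libraries overlapped. The FPKM of Neat1 was computed over 20771 bases, the length of the long transcript, so reads from the short transcript of 3004 bases were divided by a length several times their own. Its place in the order depends on that length. Together the 8 RNAs took 1.35, 1.43 and 1.22% of all counts in controls 1 to 3 and 1.57, 1.51 and 1.51% in cKO 1 to 3, so every cKO library lay above every control.

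**Figure D1:**
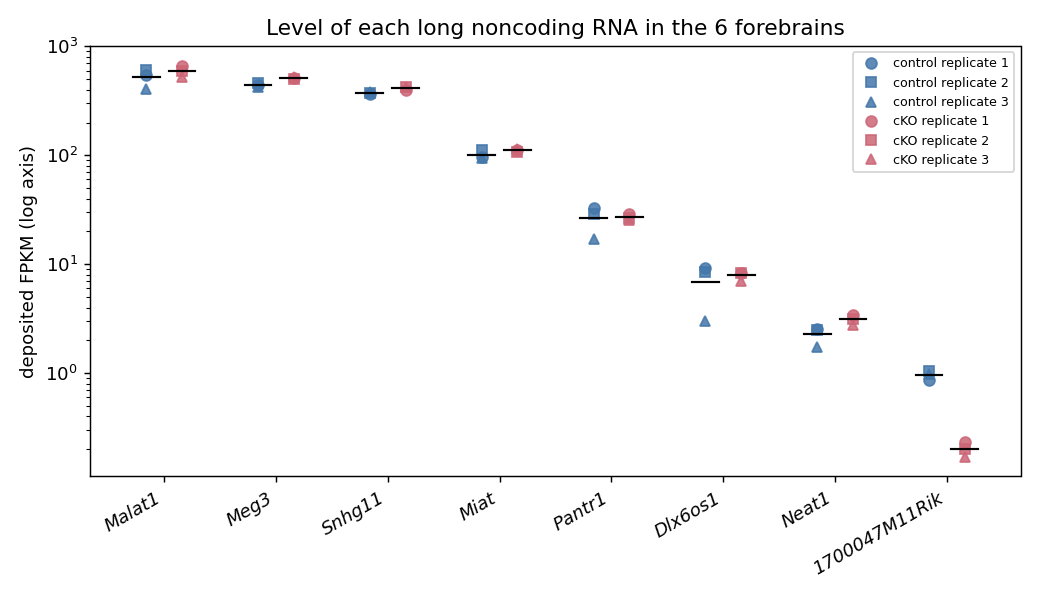
Deposited FPKM of each of the 8 RNAs (log axis) in the 3 control (blue) and 3 cKO (red) forebrains, with each group's mean as a bar. The order from Malat1 to 1700047M11Rik is the same in both groups, and 1700047M11Rik is the only one whose groups lie far apart. Control replicate 3 (blue triangle) is the lowest of the 6 libraries for every RNA but Snhg11 and 1700047M11Rik.

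The comparison of cKO with control asked which RNAs of the forebrain differ when Parp1 is deleted in Pdgfra-expressing cells. 1700047M11Rik was 4.81-fold lower in cKO forebrains and was the only one of the 8 called. The other 7 had positive log2 fold changes between 0.04 and 0.46 and were not called by edgeR's quasi-likelihood test (Benjamini-Hochberg adjusted p from 0.563 to 0.986 over all genes). Across all 16938 genes tested, 0.266% were called, 0.207% lower (35 genes) and 0.059% higher (10 genes), and the median log2 fold change was -0.00. The median over the 8 RNAs was 0.19. Exons overlap a gene on the opposite strand over 453 bases in Malat1, 1228 in Meg3, 2260 in Miat and 387 in Dlx6os1, so their counts could hold reads of that gene if the counting did not use strand.

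1700047M11Rik (ENSMUSG00000100147) lies on chromosome 1 from 182287990 to 182303325 on the plus strand, with 3 exon blocks and no exon that overlaps another gene. It had 39, 59 and 56 counts in controls 1 to 3 and 12, 13 and 13 counts in cKO 1 to 3. As CPM these were 2.25, 2.71 and 2.56 against 0.592, 0.525 and 0.452. All 3 controls lay above all 3 cKO libraries, and each group was narrow beside the gap. The mean fell from 2.51 ± 0.235 to 0.523 ± 0.0699 CPM, a log2 fold change of -2.27 (95% interval -2.89 to -1.64) with an edgeR adjusted p of 0.00267, rank 23 of all genes by p. Its counts pooled by group, 154 and 38, gave a control level 4.9 times that of cKO (95% interval 3.42 to 7.19, covering counting error only). 1700047M11Rik was chosen by its call in these 6 libraries, so fits that leave 1 of them out describe that call and support nothing. In those fits the log2 fold change ran from -2.35 to -2.17, and edgeR's adjusted p lay between 0.00276 and 0.0289. The value was -2.33 when control replicate 1, the only library with Y-linked reads, was the one left out. The call was lost in limma on the deposited FPKM, where the log2 fold change of FPKM + 0.1 was -1.82 (adjusted p 0.0753) and that of FPKM + 1 was -0.71 (adjusted p 0.0752). The last gene called, Cnp, had an adjusted p of 0.0452, and the first not called, Sox8, 0.0501.

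Parp1 itself lies 1.69 Mb from 1700047M11Rik on the same chromosome. Its mean was 91.2 ± 5.84 CPM in controls and 79.8 ± 0.843 in cKO (log2 fold change -0.19, edgeR adjusted p 0.572). Between the 2 genes, 30 others had a row, of which 22 were tested. None of these was called by edgeR or reached an unadjusted p under 0.05, and their log2 fold changes ran from -0.48 for H3f3aos to 0.69 for Dnah14, with a median of 0.0. The nearest coding genes were Degs1, a sphingolipid desaturase gene that ends 5185 bases before 1700047M11Rik, and Fbxo28, an F-box gene 9776 bases after it. Degs1 had 50.9 ± 3.39 CPM in controls and 46.6 ± 3.98 in cKO (log2 fold change -0.13, adjusted p 0.847), and the log2 fold change of Fbxo28 was 0.01 (adjusted p 0.986).

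The genes whose log2 CPM followed 1700047M11Rik most closely over the 6 libraries were A930009A15Rik (Pearson r = 0.998), Spa17 (0.997), Gpr17 (0.992), Kank1, Efcab10 and Enpp6 (each 0.986), among genes with a mean of at least 1 CPM. These 6 points fall into the same 2 groups for each gene, so the correlations describe the groups as much as the libraries. Gpr17, a receptor of newly formed oligodendrocytes, had 112 ± 19.2 CPM in controls and 20.2 ± 4.02 in cKO. Enpp6, an enzyme of the same stage, had 7.38 ± 0.501 and 1.73 ± 0.352 CPM. Both were called lower, as were A930009A15Rik and Kank1, while Spa17 and Efcab10, with log2 fold changes of -0.62 and -0.43, were not. Exons of Gpr17 and Spa17 overlap Lims2 and Siae on the opposite strand, so the same limit on strand holds for them, as it does for Bcas1 and Pdgfra below.

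1700047M11Rik was set beside 10 genes of the oligodendrocyte lineage, which span its stages. These were chosen after their values were seen, and all but Pdgfra were called lower. Any likeness in size to 1700047M11Rik, itself chosen as lower, is therefore a description. Its level in cKO 1 to 3, as log2 of the ratio to the control mean, was -2.08, -2.26 and -2.47. Bcas1, a marker of premyelinating cells, was at -2.44, -2.12 and -2.23, and Enpp6 at -1.94, -1.93 and -2.48. Gpr17 was at -2.43, -2.23 and -2.81, and Neu4, a sialidase gene, at -3.17, -2.08 and -2.45. C1ql1, a gene of precursors, was at -1.80, -1.52 and -1.87, and Myrf, a factor of myelinating cells, at -1.75, -1.68 and -1.57. These 6 genes come from all 3 stage lists. Sox10, a factor of the whole lineage, was at -1.41, -1.38 and -1.44, and Mbp, a myelin protein gene, at -1.34, -1.24 and -1.20. Olig2 was at -0.51, -0.51 and -0.82, and Pdgfra, the precursor receptor, at -0.53, -0.23 and -0.62. The differences between these genes were not tested, and the values assign 1700047M11Rik to no stage.

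The summed levels of 3 lineage marker lists were lower in cKO, as that of 1700047M11Rik was, but not every gene of a list was. Summed over 14 measured premyelinating genes, the level was 1335, 1312 and 1442 CPM in controls 1 to 3 and 979 to 1036 in cKO. Of the 14 tested, 7 were called lower and 2 were at a positive log2 fold change, with a median of -0.65. Tcf7l2 is on this list and on the thalamic list, whose sum was highest in control replicate 3. Over 17 myelin genes, of which 4 had a mean under 1 CPM, the summed level was 563 to 725 against 282 to 325. There 7 of 16 were called lower and 3 were positive, with a median of -0.93. Over 11 precursor genes it was 1254 to 1300 against 899 to 1065, with 4 of 11 called lower, 1 positive and a median of -0.58. Over all genes tested, 0.207% were called lower. No gene of these 3 lists was called higher or was at 0 in all libraries. Their part in the 1700047M11Rik result was not tested.

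**Figure D2:**
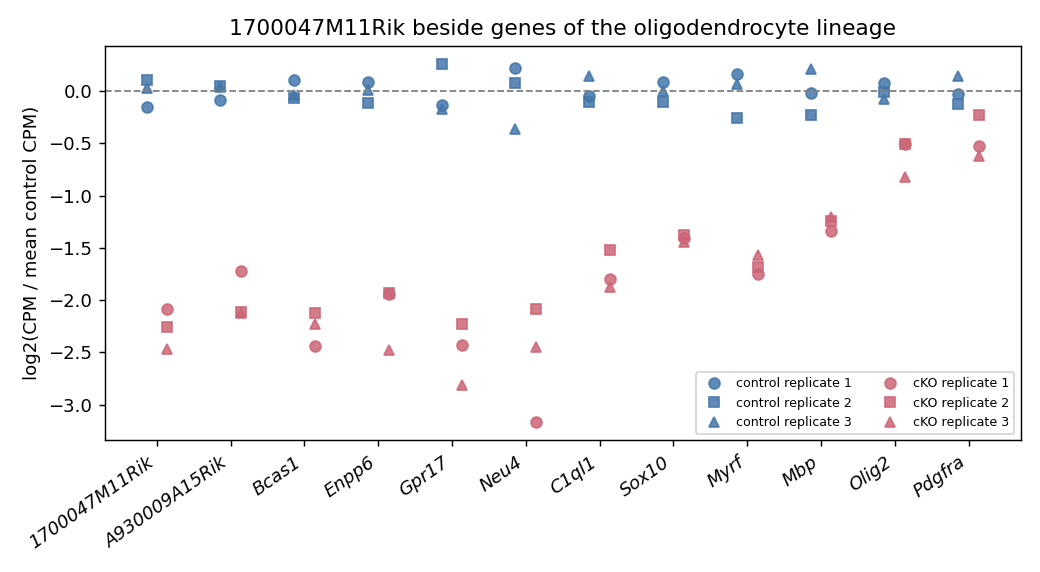
log2 of the ratio of each library's CPM to the control mean, for 1700047M11Rik, A930009A15Rik and 10 genes of the oligodendrocyte lineage, in control (blue) and cKO (red) forebrains. 1700047M11Rik lies at -2.08 to -2.47 in cKO, in the range of Bcas1, Enpp6, Gpr17 and Neu4, which reaches -3.17. C1ql1, Myrf, Sox10, Mbp, Olig2 and Pdgfra lie higher, up to -0.23 for Pdgfra.

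Neat1 (ENSMUSG00000092274), the paraspeckle RNA, lies on chromosome 19 from 5824708 to 5845478 on the minus strand, in 1 exon block. It had 53, 51.5 and 36.4 CPM in controls 1 to 3 and 69.5, 66 and 58.8 in cKO 1 to 3. Every cKO library lay above every control, and control replicate 3 was lowest. The means were 47 ± 9.18 and 64.8 ± 5.45 CPM, a log2 fold change of 0.46 (95% interval 0.14 to 0.78) that was not called (edgeR adjusted p 0.563). Of the 7 RNAs not called, this was the largest value. DESeq2 on the same counts called it (0.46, adjusted p 0.0418). Without control replicate 3 the log2 fold change was 0.30 (edgeR adjusted p 0.176), and without control replicate 1 it was 0.56 (adjusted p 0.498).

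Microglial markers lay the same way as Neat1 between the groups, but not in the order of the cKO libraries. Their 10 genes, among them Csf1r and P2ry12, summed to 466, 400 and 310 CPM in controls 1 to 3 and to 527, 477 and 583 in cKO 1 to 3. All 10 had a positive log2 fold change (median 0.45), and 7 had groups that did not overlap, higher in cKO, against 6.08% of all genes tested. None was called by edgeR, and 6 had an unadjusted p under 0.05, against 1062 of all 16938 genes. None was at 0 in all libraries, and their part in the Neat1 value was not tested. Microglia were not the only list to lie this way. The log2 fold change was positive for all 12 striatal genes (median 0.23), which were low in control replicate 3. It was positive for 9 of 10 endothelial and mural genes (median 0.12) and 7 of 8 forebrain genes (median 0.09). Thalamic genes went the other way, with 10 of 12 negative (median -0.51). Of 10 genes for paraspeckle proteins, none was called, 1 had an unadjusted p under 0.05, and the median log2 fold change was 0.02. Taf15, an RNA-binding protein gene, had 65.9 ± 4.76 CPM in controls and 75 ± 2.18 in cKO (log2 fold change 0.19, edgeR adjusted p 0.662), and Pspc1, a core paraspeckle protein gene, 69.1 ± 4.86 and 62.5 ± 2.86 CPM (-0.14, adjusted p 0.816).

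Malat1 (ENSMUSG00000092341), the splicing speckle RNA, lies 22.0 kb from Neat1 on the same strand, from 5795690 to 5802672. It had 3804, 4202 and 2837 CPM in controls 1 to 3 and 4589, 4184 and 3755 in cKO 1 to 3. The groups overlapped, and control replicate 3 was again lowest. The log2 fold change was 0.21 (95% interval -0.10 to 0.52, edgeR adjusted p 0.854), and 0.06 without control replicate 3. The interval leaves room for a cKO level anywhere from slightly under to well over that of controls. Of 9 genes for nuclear speckle and splicing proteins tested, none was called, and the median was 0.00. Of the 9, 2 had an unadjusted p under 0.05, against 1062 of all 16938 genes. Among them Qk, an RNA-binding protein gene of glia, had 349 ± 12.4 CPM in controls and 290 ± 29.5 in cKO (log2 fold change -0.27, edgeR adjusted p 0.376), and Srrm2, a speckle scaffold gene, 780 ± 51.9 and 880 ± 20.5 CPM (0.18, adjusted p 0.745).

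Meg3 (ENSMUSG00000021268), the imprinted RNA, lies on chromosome 12 from 109541001 to 109571726 on the plus strand, in 8 exon blocks. With 6459, 6670 and 6234 CPM in controls 1 to 3 and 7378, 7354 and 7850 in cKO 1 to 3, it had the most reads of the 8. The groups did not overlap, and both were narrow. The log2 fold change was 0.22 (95% interval 0.05 to 0.39, edgeR adjusted p 0.628), 0.19 without control replicate 3 and 0.22 without control replicate 1. Its neighbours in the same imprinted cluster, Rian and Mirg, had log2 fold changes of -0.00 and 0.05, and the difference between these genes was not tested.

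Snhg11 (ENSMUSG00000044349), the snoRNA host gene, lies on chromosome 2 from 158375638 to 158386145 on the plus strand, in 4 exon blocks. It had 2114, 2163 and 2240 CPM in controls 1 to 3 and 2305, 2517 and 2530 in cKO 1 to 3. Here too the groups did not overlap, and control replicate 3 was the highest control. The log2 fold change was 0.17 (95% interval 0.01 to 0.34, edgeR adjusted p 0.768), 0.19 without control replicate 3 and 0.15 without control replicate 1.

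Miat (ENSMUSG00000097767), the repeat-bearing RNA, lies on chromosome 5 from 112213228 to 112229395 on the minus strand, in 6 exon blocks. It had 888, 1008 and 877 CPM in controls 1 to 3 and 1009, 991 and 1068 in cKO 1 to 3. Control replicate 2 lay within the cKO range. The log2 fold change was 0.15 (95% interval -0.02 to 0.31, edgeR adjusted p 0.835), and 0.10 without control replicate 3.

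In all, groups did not overlap for 4 of the 8 RNAs, 1700047M11Rik lower and Neat1, Meg3 and Snhg11 higher. 1700047M11Rik was chosen by its call in this comparison, so its place among the 4 is a description and supports nothing. Over all genes tested 11.9% did not overlap, 5.86% lower and 6.08% higher, and over the 1464 long noncoding genes tested 9.08%. With 3 mice in each group, an exact two-sided permutation test of 1 RNA can give no p under 0.1, which is the value of all 4.

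**Figure D3:**
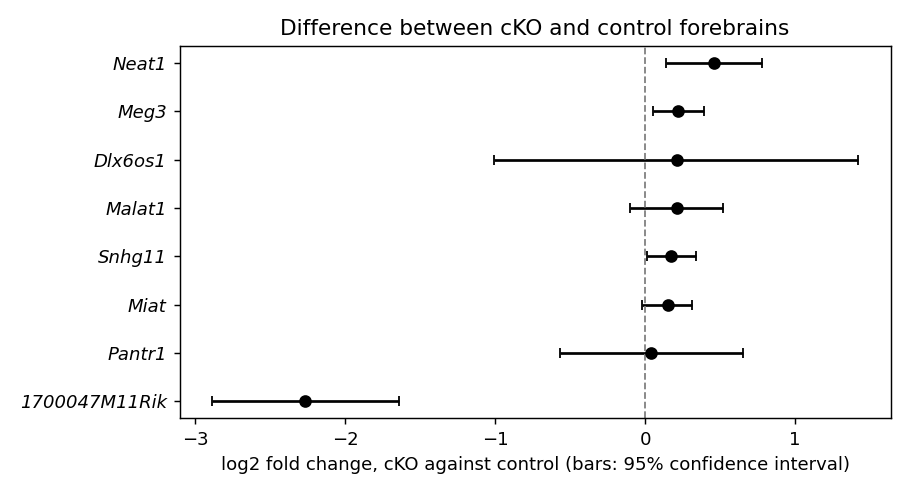
log2 fold change of cKO against control with its 95% confidence interval from edgeR for each of the 8 RNAs, and a dashed line at 0. 1700047M11Rik lies at -2.27, the other 7 lie between 0.04 and 0.46, and the interval of Dlx6os1, from -1.01 to 1.42, is the widest.

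Dlx6os1 (ENSMUSG00000090063), the RNA of the Dlx5 and Dlx6 locus, lies on chromosome 6 from 6820189 to 6871592 on the minus strand, in 5 exon blocks. It had 40.9, 37.4 and 13.4 CPM in controls 1 to 3 and 36.3, 37.2 and 31.9 in cKO 1 to 3. Controls 1 and 2 were above every cKO library, and control replicate 3 was far below all others. The log2 fold change was 0.21 (95% interval -1.01 to 1.42, edgeR adjusted p 0.96), and it changed sign to -0.16 without control replicate 3 (adjusted p 0.938). Dlx5 and Dlx6, the homeobox genes of the locus, had 8.03 and 9.81 CPM in control replicate 3, against 13.1 to 18.4 and 17.4 to 21.9 in the other 5 libraries. The 3 transcripts of this locus were thus all lowest in that forebrain.

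Pantr1 (ENSMUSG00000060424), the RNA near Pou3f3, lies on chromosome 1 from 42590782 to 42694842 on the minus strand, in 10 exon blocks. It had 68.6, 60.5 and 36.1 CPM in controls 1 to 3 and 59.8, 55.5 and 54.4 in cKO 1 to 3. Its log2 fold change was 0.04 (95% interval -0.57 to 0.65, edgeR adjusted p 0.986), -0.20 without control replicate 3 (adjusted p 0.658) and 0.23 without control replicate 1. Its direction depended on which control was left out. Pou3f3 had 154 CPM in control replicate 3, against 202 to 220 in the others.

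Control replicate 3 was the lowest of the 6 libraries for 6 of the 8 RNAs, all but 1700047M11Rik and Snhg11. Over all genes tested it was lowest for 26.2%, and each of the other libraries for 12.5 to 16.6%. The mean of the other 5 libraries was 2.74 times its level for Dlx6os1, 1.66 times for Pantr1, 1.64 for Neat1, 1.45 for Malat1, 1.15 for Meg3 and 1.13 for Miat. The summed level of 14 GABAergic genes was 807 CPM there and 942 to 1100 elsewhere. The part of the regional markers in these low values was not tested.

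**Figure D4:**
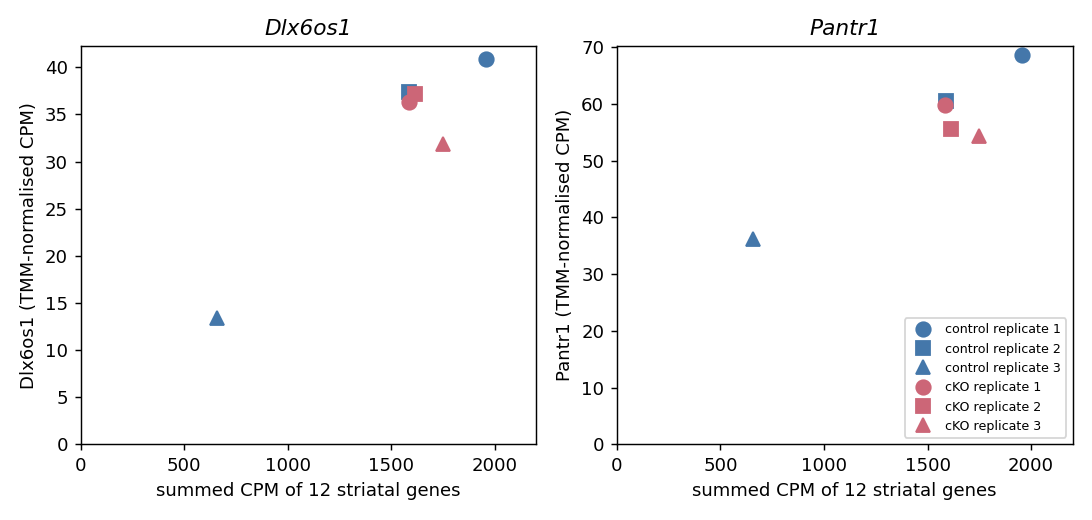
TMM-normalised CPM of Dlx6os1 (left) and Pantr1 (right) against the summed CPM of 12 striatal genes, 1 point per forebrain, control in blue and cKO in red, both axes from 0. Control replicate 3, at 658 summed CPM, 13.4 CPM of Dlx6os1 and 36.1 of Pantr1, lies apart from the other 5.

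For each of the other 7 RNAs, the 3 genes that followed it most closely over the 6 libraries had r from 0.982 to 0.997, and none of them was called. They were Rbms1, Ikbkb and Dnajc1 for Neat1, Slf2, Gm13423 and Stx4a for Malat1, and Gm11944, Hfe and Lhfp for Meg3. For Miat they were Arntl2, Ripor1 and Flot2, and for Snhg11 Rnf170, Nup133 and Gnpat. Memo1, Rara and Myo1f followed Dlx6os1, and Zswim5, Gpr6 and Gm11960 followed Pantr1. No member of the set was among the closest genes of another, and since each name is the best match out of all genes over only 6 libraries, the names are a description.

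Other noncoding RNAs were read as 6 lists of 67 genes, of which 45 were tested. None was called higher, 1 was called lower, and their median log2 fold change was 0.03. Over all genes tested, 0.266% were called. The 1 gene called was A930009A15Rik, on a list of oligodendroglial noncoding RNAs to which it was added with its earlier result known, and the annotation calls it protein coding. It had 2.14, 2.35 and 2.33 CPM in controls 1 to 3 and 0.691, 0.525 and 0.522 in cKO 1 to 3. The log2 fold change was -1.98 (edgeR adjusted p 0.00999), and the call was lost without cKO replicate 2 or 3 (adjusted p 0.0832 and 0.0526). 2810468N07Rik, the other gene of that list tested, was at -0.30 (adjusted p 0.845), and 329 bases of its exons overlap Sox8 on the opposite strand.

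No call was made in the other 5 lists. Of 10 snoRNA host genes tested, the smallest p belonged to Snhg15 and Snhg6, with log2 fold changes of -0.26 and -0.06, and the list's median was -0.02. Of 7 imprinted noncoding RNAs, Airn was at -0.46 and Kcnq1ot1 at 0.20, with a median of 0.05. No gene of either list had an unadjusted p under 0.05.

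Among 8 microRNA host transcripts, with a median of 0.04, Mir9-3hg, a host of the neural microRNA miR-9, had 77.2 ± 6.46 CPM in controls and 66.9 ± 4.27 in cKO (log2 fold change -0.21, edgeR adjusted p 0.668). It was the only one of the 8 with an unadjusted p under 0.05. Mir124a-1hg, a host of the neuronal miR-124, was at 0.17. Among 10 transcripts antisense to or divergent from developmental factors, with a median of 0.18, Sox1ot was at 0.25 (adjusted p 0.768) and Zeb2os at -0.70 (adjusted p 0.776), and these 2 had an unadjusted p under 0.05. Zeb2os, whose exons overlap Zeb2 on the opposite strand by 653 bases, had 1.57 ± 0.44 CPM in controls and 0.952 ± 0.11 in cKO, and its groups did not overlap. Among 8 widely expressed noncoding RNAs, with a median of 0.04, Ftx was at 0.17 and Lncpint at 0.41, and none had an unadjusted p under 0.05. Of all 16938 genes tested, 1062 had one.

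None of the 10 coding genes beside the RNAs was called, and their median was 0.04. Sox2, within the Sox2ot locus, had 75.2 ± 4.87 CPM in controls and 65.9 ± 4.34 in cKO (log2 fold change -0.19, edgeR adjusted p 0.707), the only one with an unadjusted p under 0.05. Nedd1, near Rmst, was at 0.32 (adjusted p 0.835).

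Over all 1464 genes that the annotation calls long noncoding and that passed the filter, 1700047M11Rik was the only one called by edgeR, which is 0.0683%, and DESeq2 called 2, with Neat1. In the edgeR fit, with 1700047M11Rik counted, 62 of the 1464 had an unadjusted p under 0.05, against 1062 of all 16938 genes. In the same fit 803 had a positive and 661 a negative log2 fold change, and the median was 0.03. Of 14955 protein-coding genes 42, or 0.281%, were called, 8 higher and 34 lower. The difference between these 2 shares was not tested.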

How the data were processed

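Per the labels' protocols, poly-T beads selected the RNA of 3 cKO and 3 control forebrains, and the library kit kept the strand. The authors deposited, for each Ensembl gene, an unnormalised read count. Their deposited FPKM values are that count over the library total and over a length that is fixed for each gene, as tested on every value, and so hold no further measurement. That length is that of the longest annotated transcript for 7 of the 8 RNAs measured. CASAVA, STAR 2.5, HTSeq 0.6.1, DESeq and build mm10 are the names in the submitters' processing notes, which give no role for any of them. Neither the annotation release nor the strand setting of the counting is given in the sources used here. Identifiers were named by GENCODE M21, also on mm10, which matched 34490 of 35275. The 785 others held 0.119 to 0.13% of a library's counts.

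Counts were tested with edgeR 4.0.16 in R 4.3.3: filterByExpr by group (minimum count 10, minimum total 15), TMM factors, and a robust two-sided quasi-likelihood test with Benjamini-Hochberg adjustment over all 16938 genes tested, with calls at an adjusted p under 0.05. The procedure was tested on simulated data. CPM are TMM-normalised, values are mean ± SD, and intervals are at 95%. Likeness between genes is Pearson's r of log2(CPM + 0.5). Counts of the 6 libraries differed from each other by more than counting noise, so all 6 were used as separate samples, and the precision is that of 3 mice per group.

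The RNAs, the gene lists and the rule for naming genes were chosen with earlier results of these data known. The rule named the 10 RNAs, every called gene of the gene lists and otherwise the 2 of each list with the smallest p, the nearest coding gene on each side of 1700047M11Rik, and the genes most alike in level (6 for 1700047M11Rik, 3 for each other RNA). Other genes named, such as Parp1, Dlx5, Dlx6, Pou3f3, Rian, Mirg and the markers, were chosen after their values were seen.

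As alternatives, the scaling was changed from TMM to DESeq2's factors, to upper quartiles or to library size alone. The filter was dropped or set to a mean of 1 CPM. The tool was changed to DESeq2 1.42.0, to limma 3.58.1 (voom, quality weights) or to edgeR with non-robust dispersion. FPKM were tested by limma with a pseudocount of 1 or 0.1 where the mean FPKM reached 0.5, and with a pseudocount of 1 unfiltered. Each library was also left out in turn, and replicate number was added as a block.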

Additional observations from a re-analysis of the deposited data

How the results depend on the processing

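Depth limited 1700047M11Rik most, with 12 or 13 counts in each cKO library. Its log2 fold change kept its sign under all 18 alternatives, but its call was lost in limma on FPKM: -0.71 with a pseudocount of 1 (adjusted p 0.0752), -1.82 with 0.1 (0.0753) and -0.71 with 1 and no filter (0.0713), so 0 of the RNAs and 0 long noncoding genes were called there. The pseudocount is added to means of 0.963 FPKM in controls and 0.2 in cKO, which makes these fold changes smaller. The cause of the lost call was not tested. Those fits called 4 higher and 20 lower, 4 and 20, and 3 and 18 of all genes. DESeq2 called 2 of the RNAs and 2 long noncoding genes, Neat1 (0.46, adjusted p 0.0418) beside 1700047M11Rik, and 51 genes higher and 62 lower in all, and edgeR with no filter called 50 higher and 61 lower. Without robust dispersion 6 were higher. Pantr1 turned to -0.07 in limma-voom (adjusted p 0.914). With each library left out in turn, 1 of the RNAs was called each time, 4 (without control replicate 1) to 19 (without cKO replicate 3) genes were higher and 24 to 44 lower, and 0 (without cKO replicate 2 or 3) to 1 list gene was called. Over these fits Dlx6os1 ran from -0.16 to 0.47 and Pantr1 from -0.20 to 0.23, both lowest without control replicate 3. With replicate number as a block 5 genes were higher, 27 lower and 0 list genes called (A930009A15Rik, adjusted p 0.0591). The labels name no pairing of the mice. Same-numbered libraries correlated at 0.004, -0.046 and 0.007 in their deviations from the group means. With 3 libraries per mean, these values cannot decide whether littermates share a number.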

Other observations

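Malat1, Neat1 and Pantr1 shared part of their order of libraries. Each was lowest of all 6 in control replicate 3 and, within cKO, higher in replicate 1 than in 2 and in 2 than in 3. Controls 1 and 2 were not part of this order. The same order was found in other noncoding RNAs: Kcnq1ot1, the imprinted RNA antisense to Kcnq1, had 57.1, 60.1 and 48.9 CPM in controls 1 to 3 and 77.7, 61.9 and 51.9 in cKO 1 to 3. Mirg, from the imprinted cluster of Meg3, had 67.8, 70.7 and 52.3 against 77.7, 62 and 57.7 CPM, and Mir124a-1hg had 165, 174 and 100 against 195, 162 and 140. In all, 12 of the 82 RNAs and list genes tested (14.6%) had it, and 5.7% of all genes tested. The order was noticed in these values and then counted, and the difference between the shares was not tested. Library totals rose from cKO 1 to 3 (19934003, 24916865 and 29310193 counts), and the part of depth in this order was not tested. Rian, the third noncoding RNA of the imprinted cluster described, went the other way: its level was highest in control replicate 3, with 1586 CPM, and 1329 to 1448 in the other 5 libraries.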
